A study of Mus musculus with 4 samples.

Results

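The cytoplasmic ribosomal proteins were described here as 49 genes among the 18193 genes measured on 4 arrays. Members were genes whose platform symbol had the form of a large-subunit name (Rpl, Rplp) or a small-subunit name (Rps, Rpsa). The ribosomal protein S6 kinases were left out, and only probe sets with 1 gene symbol were used. For a gene with several probe sets, the set with the highest average over all 4 arrays was kept, whatever the day. This gave 26 large-subunit and 23 small-subunit genes, and none was chosen for its difference between days. Of the 49 genes, 43 encode the usual ribosomal proteins, called canonical here, and 6 encode paralogues of them. Ribosomal protein genes outside this choice were not analysed as members.

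A ribosome is built from ribosomal RNA and many ribosomal proteins, most of which are present once in each particle. Their messages are among the most abundant of a growing cell. Many begin with a run of pyrimidines, the terminal oligopyrimidine tract, through which their translation is tied to growth signals. A few members have paralogues that are expressed in some tissues and not in others, such as Rpl3l in muscle and Rpl39l in the male germ line.

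The arrays compared mouse embryonic stem cells, labelled day 0, with epiblast-like tissue, labelled day 3. The tissue was made from the stem cells in SFEBq, a serum-free floating culture in which dissociated cells quickly reaggregate into embryoid body-like clumps. No genotype, strain or added agent was named in the labels used, so culture form, medium and cell state cannot be told apart between the days. Each day had 2 samples, which the labels did not describe as separate cultures, so the p-values reflect no more than the spread among these samples, and that spread may be technical.

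All values below are log2 expression values, so that a difference of 1 is a doubling, and every difference is day 3 minus day 0 with its standard error. A gene was called when the Benjamini-Hochberg adjusted p from limma, a linear model fitted across all genes, was under 0.05. The array medians lay between 5.78 and 5.79 and the first quartiles between 4.30 and 4.33. All 7 markers of naive stem cells fell, with a list mean of 11.31 to 11.41 on the day 0 arrays and 8.21 to 8.25 on the day 3 arrays. All 5 measured markers of formative epiblast rose, from 8.62 to 8.70 up to 11.88 to 12.00. Of 3 general pluripotency genes, Nanog fell by 2.72 and Sox2 by 0.64, and Pou5f1 was not called. Their list mean was 12.82 to 12.87 at day 0 and 11.66 to 11.79 at day 3. Of the 7 visceral endoderm markers 6 rose, Ttr and Afp among them, and Rhox5 fell (the list mean went from 7.18 to 7.19 up to 10.73 to 10.81). The list means of 4 fibroblast genes were 5.27 on both day 0 arrays and 5.87 to 5.94 at day 3, and 2 of the 4 rose. Those of 3 primitive streak genes were 5.62 to 5.64 and 6.56 to 6.79, with 2 of 3 called higher. Those of 3 neural genes were 6.72 to 6.77 and 6.02 to 6.08, with 1 called each way. The part of such other cells in the ribosomal protein values was not tested. In bulk RNA of this kind, fewer cells of a type and less RNA per cell cannot be told apart.

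The signals of most ribosomal protein genes stayed within a narrow range while a large share of the other genes moved. Most of these signals stood near the top of the arrays' scale, where compression of differences was not tested. Of the 49 members 2 rose, 7 fell and 40 did not pass the test, and 1 of the 7, Rpl3l, was near background. Over all genes 42.3% were called, 20.9% higher and 21.4% lower, against 18.4% of the members. The median difference was 0.00023 over members and 0.01 over all genes. The median size of the difference, without its sign, was 0.05 for members and 0.21 for all genes. The days did not overlap for 33 of the 49 members, which was close to the 69.0% of all genes whose arrays did not overlap. At an unadjusted p under 0.05, 3 members were higher and 8 lower. At that limit 4334 of all 18193 genes were higher and 4380 lower.

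**Figure D1:**
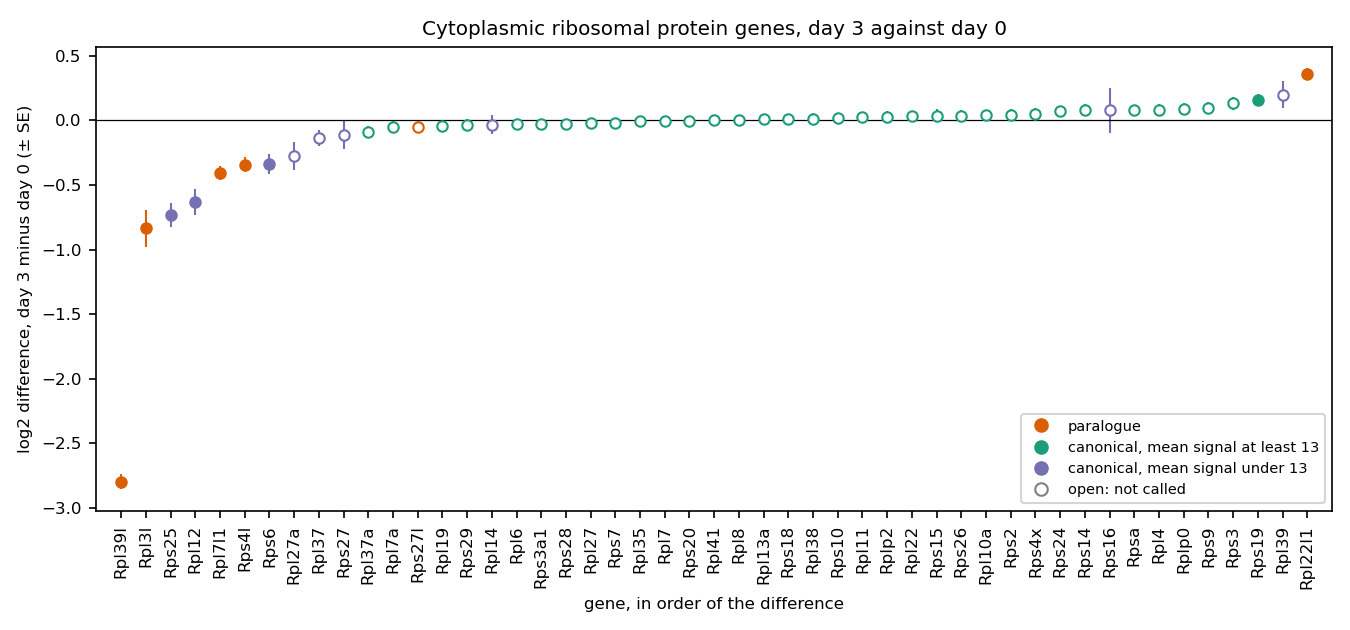
Log2 difference of each ribosomal protein gene, day 3 minus day 0, with its standard error, in order of the difference. Colours mark paralogues, canonical genes with a mean of at least 13 and canonical genes with a mean under 13. Open points were not called. Most genes sit close to 0, and Rpl39l stands far below the others at -2.80.

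The canonical members with strong signal varied least. Of the 43 canonical genes, 34 had a mean of at least 13, a limit set after the values were seen. One of them, Rps19, rose, 0 fell and 33 did not pass limma's test. Differences in these 34 genes ran from -0.09 to 0.16, with a median of 0.015. The 95% intervals of the 33 uncalled genes all lay between -0.18 and 0.25. This describes the signal of these probe sets and not the change of the messages where signal is compressed. At an unadjusted p under 0.05, 2 of the 34 were higher and 0 lower, beside 4334 and 4380 of all 18193 genes. The median size of their day difference was 0.033, while replicates differed by a median of 0.024 at day 0 and 0.031 at day 3.

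These genes stood near the top of the arrays' scale, whose highest values were 14.95 to 15.06. Their median on each array was 14.41 and 14.37 at day 0 and 14.43 and 14.46 at day 3. How far the top of the scale compresses differences was not tested. Among the 99 other genes at or above the members' first quartile of level, 37.4% were called, 17 higher and 20 lower. Their median level was 13.70, below the 14.43 of the 34 canonical genes, so the levels were not matched.

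Neither subunit held a canonical gene of strong signal that fell. In the large subunit the 17 such genes ranged from -0.09 for Rpl37a to 0.087 for Rplp0, and 0 were called by limma or had an unadjusted p under 0.05. In the small subunit the 17 such genes ranged from -0.032 for Rps29 to 0.16 for Rps19, and 1 was called. Their medians were 0.0033 and 0.037, and the difference between subunits was not tested.

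The start sites are shown for 6 called members with 1 annotated start each, for Rpl39, and for Rpl38 and Rpl7a, which lay near 0, because the oligopyrimidine start is the feature best known to be shared by these genes. Sequences are from RefSeq, build GRCm38.p6, with 40 bases before the start and 15 from it on. Capitals mark an oligopyrimidine tract at the start, searched as C within 5 bases of the start base followed by at least 4 C or T on the gene's strand, or the ETS core CCGGAA or TTCCGG on either strand. Rpl39l lies at chr16:10170188-10170242 on the plus strand and Rpl39 at chrX:37085208-37085262 on the minus strand. Rpl22l1 lies at chr3:28805468-28805522 on the plus strand and Rpl7l1 at chr17:46782642-46782696 on the minus strand. Rpl12 is at chr2:32961672-32961726 on the plus strand and Rps6 at chr4:86857353-86857407 on the minus strand. Rps25 is at chr9:44407674-44407728, Rpl38 at chr11:114668540-114668594 and Rpl7a at chr2:26910767-26910821, all on the plus strand.
Rpl39l: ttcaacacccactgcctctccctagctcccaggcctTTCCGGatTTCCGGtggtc
Rpl39: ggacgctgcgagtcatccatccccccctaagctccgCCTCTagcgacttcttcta
Rpl22l1: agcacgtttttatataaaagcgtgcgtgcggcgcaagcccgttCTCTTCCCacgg
Rpl7l1: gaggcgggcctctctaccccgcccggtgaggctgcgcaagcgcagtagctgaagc
Rpl12: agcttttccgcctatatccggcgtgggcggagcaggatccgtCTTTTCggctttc
Rps6: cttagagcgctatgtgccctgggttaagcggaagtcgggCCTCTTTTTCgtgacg
Rps25: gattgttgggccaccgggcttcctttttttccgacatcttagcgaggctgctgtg
Rpl38: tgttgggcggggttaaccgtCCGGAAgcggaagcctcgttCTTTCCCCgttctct
Rpl7a: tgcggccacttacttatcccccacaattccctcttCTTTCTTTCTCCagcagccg

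The search matched a tract in Rpl39 and none in Rpl39l, whose shown window held 2 ETS cores. Rpl39l does have a run of 7 pyrimidines that ends at the base before the start, but the run begins outside the bases searched, and the C bases within them are followed by fewer than 4 pyrimidines. In the full window, 250 bases before to 50 after the start, Rpl39l had 4 ETS cores and Rpl39 had 1. Of the 43 members with an entry in the RefSeq promoter table, 20 (46.5%) matched the search for the oligopyrimidine start, against 21.2% of 27025 genes. Other members without a match also had runs that began further before the start, such as 14 pyrimidines in Rpl4 and 7 in Rpl10a. The share therefore counts matches of this search and not all tracts. The ETS core was in 28 members (65.1%), against 16.7% of genes. The letters TATAAA in the 40 bases before the start were found in Rpl22l1 alone among members, or 2.33%, against 2.78% of genes. CACGTG was in 4 members (9.3%), against 8.09%.

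Called and uncalled members both had these letters. The search matched an oligopyrimidine start in 3 of 8 called and 17 of 35 uncalled members with an entry. The ETS core was in 5 of 8 and 23 of 35. A match is a description of the letters in the window and not a site of binding.

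Of the paralogues, 4 of the 6 measured fell, Rpl3l among them at levels near background, and 1 rose. In each of the 6 the arrays of the days lay apart. Over all genes, 42.3% were called and the days did not overlap for 69.0%. The median difference of the 6 paralogues was -0.37. The paralogues Rpl10l and Rps4y2 were not analysed here.

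Rpl39l moved most among the members. It is a paralogue of Rpl39, the small protein that lines the exit tunnel of the large subunit. On the day 0 arrays Rpl39l read 13.43 and 13.33, and on the day 3 arrays 10.63 and 10.54. Both day 3 arrays lay far below both day 0 arrays, and the replicates of each day lay within 0.10 of each other. It fell by 2.80 ± 0.06, a 6.96-fold lower level, with an adjusted p of 2.758e-10 in limma. This was the 76th largest fall of the 18193 genes, and the only member difference of at least 2-fold. For Rpl39 itself the day 0 arrays read 6.67 and 6.63, and the day 3 arrays 6.83 and 6.86. Its difference of 0.20 ± 0.10 did not pass the test (adjusted p = 0.16 in limma), although the days did not overlap. Rpl39 is described here because its paralogue moved, a choice made after the values were seen, and its only probe set stood far below those of most members.

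Rpl22l1, a paralogue of Rpl22 whose start has both a tract and TATAAA, was the paralogue that rose. Its arrays read 13.19 and 13.18 at day 0 and 13.55 and 13.54 at day 3. The replicates of each day nearly coincided and the days were clearly apart. The rise was 0.36 ± 0.04, or 1.28-fold, with an adjusted p of 7.76e-05 in limma. Rpl22, an RNA-binding protein of the large subunit that is known to hold down Rpl22l1, read 14.33 and 14.31 at day 0 and 14.35 and 14.36 at day 3. Its difference of 0.034 ± 0.04 did not pass the test.

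Rpl7l1, a relative of Rpl7, read 11.88 and 11.83 at day 0 and 11.44 and 11.46 at day 3. It fell by 0.41 ± 0.06 with an adjusted p of 1.43e-04 in limma. All 3 of its probe sets were called lower, so the fall did not rest on the choice of probe set.

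Rps4l, which is very similar to the X-linked Rps4x, read 13.47 and 13.56 at day 0 and 13.11 and 13.24 at day 3. It fell by 0.34 ± 0.06 with an adjusted p of 6.17e-04 in limma, while Rps4x differed by 0.049 ± 0.04 and did not pass. Close copies can share probes, so the split of signal between Rps4l and Rps4x is uncertain.

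Rpl3l, the muscle paralogue of Rpl3, read 4.78 and 4.97 at day 0 and 4.19 and 3.88 at day 3. The day 3 values lay below the first quartile of those arrays, where a level cannot be separated from background. It was called lower, with an adjusted p of 7.5e-04 in limma, but the size of the fall is not given, since day 3 has only an upper limit. Rps27l, a paralogue of Rps27 known as a p53 target, differed by -0.047 ± 0.04 and did not pass the test (adjusted p = 0.45 in limma).

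**Figure D2:**
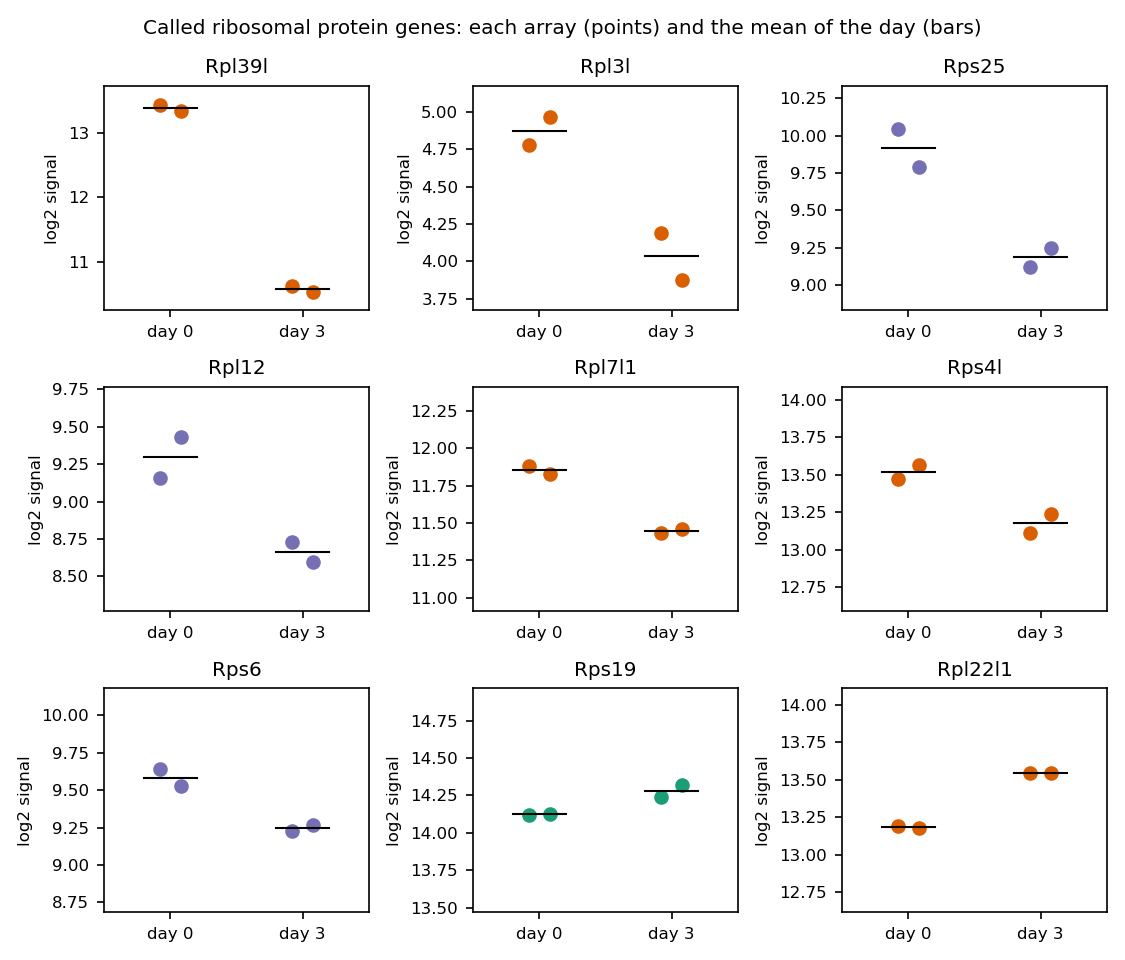
Log2 expression on each of the 4 arrays for the 9 called ribosomal protein genes, with day 0 and day 3 shown apart. No called gene has overlapping days, and Rpl39l has the widest gap, from 13.38 to 10.58 on average.

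Among the 43 canonical members 1 rose and 3 fell. This was 9.3% called, against 42.3% of all genes. Rps19, a small-subunit protein mutated in Diamond-Blackfan anaemia, read 14.12 and 14.13 at day 0 and 14.24 and 14.32 at day 3. Its rise of 0.16 ± 0.05 was 1.12-fold, with an adjusted p of 0.016 in limma. The call depended on single samples and on the variance model. Without day 0 replicate 1 the adjusted p was 0.058, and without day 3 replicate 2 it was 0.13. It was 0.18 without the intensity trend and 0.15 in an unmoderated test.

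Rps25, a small-subunit protein used by some viral internal ribosome entry sites, read 10.04 and 9.79 at day 0 and 9.12 and 9.25 at day 3. Both day 3 arrays were lower than both day 0 arrays. The fall was 0.73 ± 0.09, or 1.66-fold, with an adjusted p of 8.8e-05 in limma. Rpl12, at the base of the P stalk that recruits elongation factors, read 9.16 and 9.43 at day 0 and 8.73 and 8.60 at day 3. It fell by 0.63 ± 0.10, or 1.55-fold, with an adjusted p of 4.45e-04 in limma. The other measured stalk genes, Rplp0 and Rplp2, differed by 0.087 ± 0.05 and 0.030 ± 0.04 and did not pass. Rps25 and Rpl12 each had only 1 probe set with 1 symbol, with means of 9.55 and 8.98, so no stronger such set was compared. A further 110 probe sets carried a member symbol among several, of which 2 were called higher and 7 lower. Those with a mean of at least 13 numbered 79, with 0 called either way. Which genes these sets read was not examined. Weaker sets of other members, given below, did not always move with their strong sets.

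Rps6, the target of the S6 kinases, read 9.64 and 9.53 at day 0 and 9.22 and 9.27 at day 3. It fell by 0.34 ± 0.07 with an adjusted p of 0.0038 in limma. The kept set of Rps6 had a mean of 9.42. Its other set with 1 symbol had a mean of 4.83 and was not called, so no stronger set was compared. Without day 3 replicate 1 the adjusted p was 0.051, and with the mean of its probe sets it was 0.078 at a difference of -0.20.

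Rps25, Rpl12 and Rps6 are 3 of the 9 canonical genes whose kept probe set had a mean under 13. These 9 had a median difference of -0.14. The other 6, Rpl14, Rpl27a, Rpl37, Rpl39, Rps16 and Rps27, did not pass. Rpl27a, a large-subunit protein, differed by -0.28 ± 0.11 with an adjusted p of 0.060 in limma, and without day 0 replicate 1 its difference was -0.35 with an adjusted p of 0.026. Over 13 alternatives its difference ran from -0.36 to -0.038 and its adjusted p from 0.026 to 0.80. Rps16 lay below the first quartile of the arrays, with means of 3.78 and 3.86, so its probe set cannot be separated from background.

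By role, most of the rest lay close to 0. Rpl11, which with Rpl5 and the 5S ribosomal RNA can bind Mdm2, differed by 0.026 ± 0.04. Of 7 measured genes of the decoding centre and mRNA path, Rps25 fell and the other 6 did not pass, with Rps3 highest at 0.13 ± 0.05 (adjusted p = 0.060 in limma). Of the 4 measured tunnel genes 0 passed limma's test and 0 had an unadjusted p under 0.05. Rpl38, known for its part in the translation of Hox messages, differed by 0.014 ± 0.04, Rpl13a by 0.0077 ± 0.04 and Rpsa, the laminin-receptor gene, by 0.082 ± 0.04. In an unmoderated test Rpsa was called higher, with an adjusted p of 0.045. Another strong probe set of Rpl13a, with a mean of 13.43, was called higher at 0.14 ± 0.04. Of 11 measured Diamond-Blackfan anaemia genes, Rps19 rose and 0 fell, with a median of -0.0077.

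A gene's probe sets did not always move together. The 49 genes had 105 probe sets, of which 7 were called higher, 14 lower and 84 neither way when every probe set was tested. Canonical probe sets with a mean of at least 13, of which there were 64 from 34 genes, gave 3 called higher and 0 lower. Those with a lower mean, 31 from 22 genes, gave 3 called higher and 8 lower, with a median of -0.14. For the 13 genes with probe sets on both sides, the 32 strong sets had a median of 0.015 and the 20 weaker sets one of -0.18. Other probe sets in the weaker sets' range of levels had a median of -0.0033, with 6229 higher and 7318 lower of 39948.

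The widest gaps were in Rps24 and Rpl41. The kept probe set of Rps24 differed by 0.070 ± 0.04, while a weaker set read 9.99 and 9.69 at day 0 and 9.11 and 9.07 at day 3. That weaker set was called lower, at -0.75 ± 0.10. Rpl41, which encodes the smallest ribosomal protein, differed by 0.00023 ± 0.04 in its kept set, and by -0.50 and -0.75 in 2 weaker sets, both called lower.

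Rps10 and Rps9 each had a weaker set that was called lower, at -0.44 and -0.40, while their kept sets differed by 0.015 and 0.099 and did not pass. The reverse held for Rpl22, Rpl13a and Rps3, whose weaker sets were called higher at 0.33, 0.22 and 0.38. Which transcript or part of a transcript each set reads was not tested. Ribosomal protein genes have many processed copies in the genome, and 12 of the 49 kept probe sets had an identifier ending in _s_at or _x_at, which marks probes that can match transcripts of other genes. A further 20 ended in _a_at, which marks probes shared by transcripts of 1 gene.

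**Figure D3:**
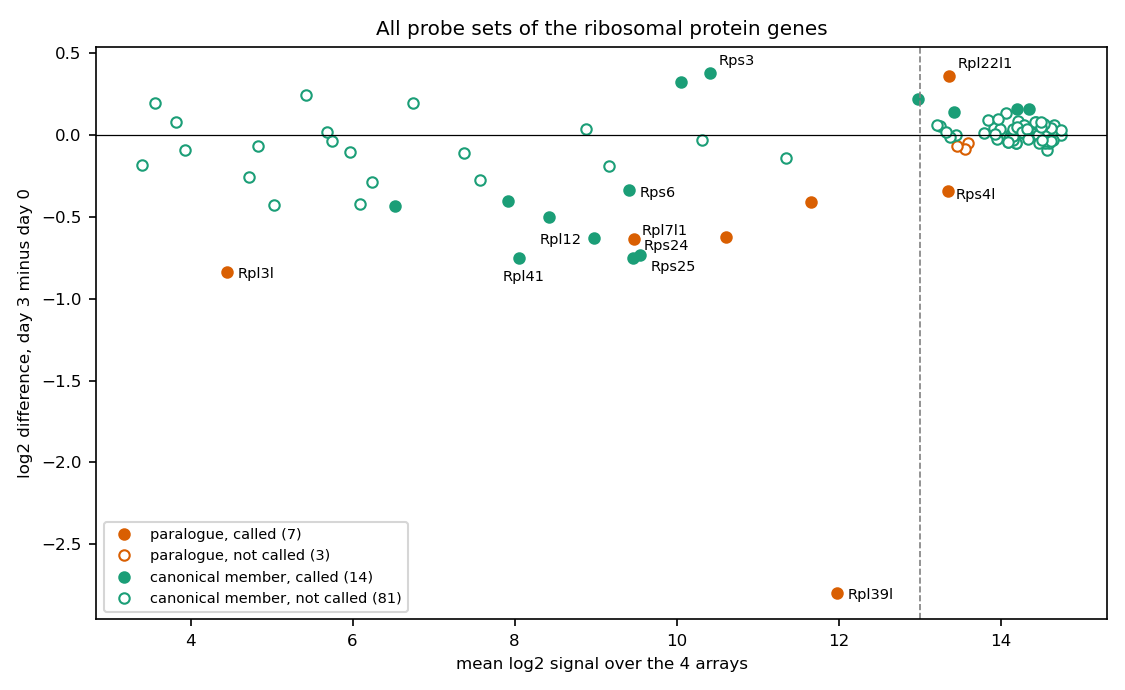
Log2 difference against mean log2 expression for every probe set of the ribosomal protein genes, with called probe sets marked. Canonical probe sets above a mean of 13 lie between -0.09 and 0.16, and those below it spread from -0.75 to 0.38.

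The other genes of the pathway are read against all genes, of which 20.9% were called higher and 21.4% lower. Of 15 genes for RNA polymerase I transcription, which makes the large ribosomal RNA precursor, 12 fell, 0 rose and 3 did not pass, with a median of -0.40. Znrd1, a subunit of that polymerase, read 11.43 and 11.51 at day 0 and 10.47 and 10.44 at day 3, and fell by 1.02 ± 0.06. Ttf1, which ends its transcription, fell by 0.82 ± 0.13, and Taf1c, a part of its promoter factor, fell by 0.79 ± 0.08. In each of these 3 genes both day 3 arrays lay below both day 0 arrays.

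Of 27 large-subunit assembly genes measured, 16 fell, 2 rose and 9 did not pass, with a median of -0.27. Rrp1b fell by 0.74, Lsg1, a GTPase of late assembly, by 0.73 and Bop1 by 0.63, while Rrp1 rose by 0.49. Of 29 small-subunit assembly genes, 19 fell, 2 rose and 8 did not pass, with a median of -0.28. The largest differences were in Riok2, a kinase of late assembly, which fell by 1.08, Utp6, which fell by 0.92, and Rrp9, which fell by 0.67. Of 8 measured genes listed for the small nucleolar particles that modify ribosomal RNA, 2 were lower, Nop58 and Nolc1, with a median of -0.10. That share of 25% was near the share of all genes.

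Among 14 measured regulators of ribosomal protein messages or of ribosome synthesis, 7 fell, 2 rose and 5 did not pass. Myc, a transcription factor that raises ribosome synthesis, fell by 1.51 ± 0.10, and Mycn rose by 0.47 ± 0.07. Mdm2 fell by 0.75 ± 0.08 and Gabpa, which binds the ETS core, by 0.52 ± 0.06. Larp1, which binds oligopyrimidine messages, differed by 0.060 ± 0.06 and Mtor by -0.017 ± 0.07, and neither passed. Fau, a ribosomal protein gene under another symbol, read 14.00 and 14.01 at day 0 and 14.02 and 14.09 at day 3 and did not pass.

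The mitochondrial ribosomal proteins, encoded by separate nuclear genes, are set beside the same 20.9% higher and 21.4% lower of all genes. Of 76 genes, 40 fell, 7 rose and 29 did not pass, with a median of -0.22. The 58 genes with symbols of translation initiation and elongation factors had 13 higher and 19 lower, with a median of -0.061. Their share called higher was near that of all genes. This list was chosen by symbol and also holds genes that act on these factors, such as Eif2ak1 and Eef2kmt. Eif4ebp1 and Eif4ebp2 are in it and also among the regulators above. No test of the difference between these lists and the cytoplasmic ribosomal proteins was made.

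**Figure D4:**
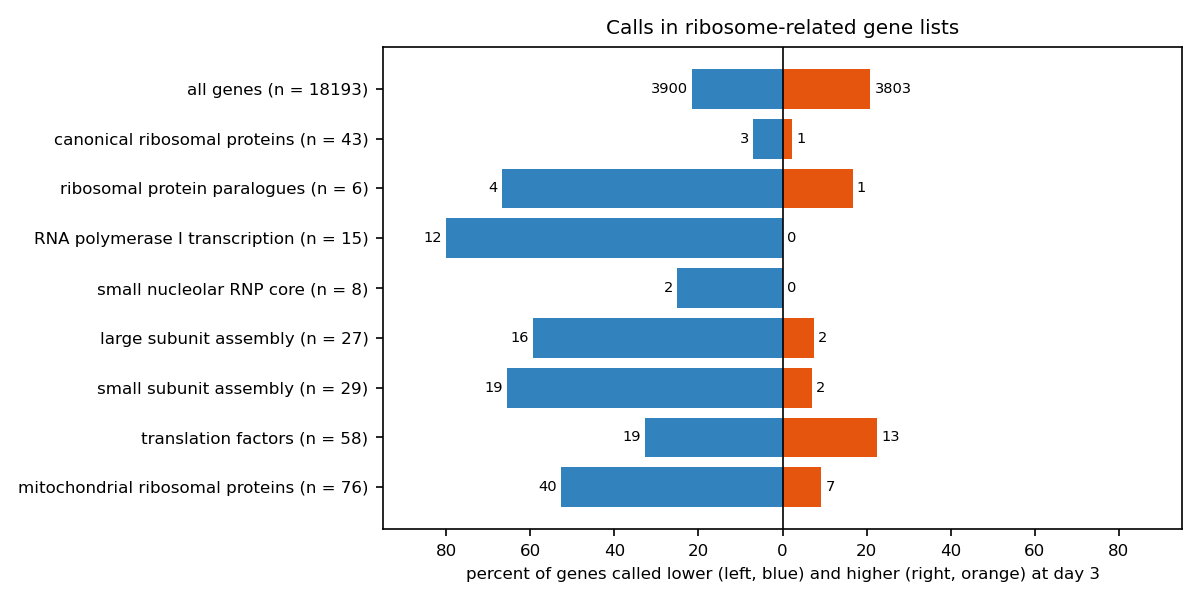
Percent of the genes in each list called lower (left, blue) and higher (right, orange) at day 3, with the counts beside the bars. Canonical ribosomal proteins and paralogues have separate bars. The canonical genes had 3 called lower and 1 higher of 43. The RNA polymerase I, large-subunit assembly and small-subunit assembly lists had 12, 16 and 19 called lower, and 0, 2 and 2 higher.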

How the data were processed

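Total RNA of 4 samples was measured on Affymetrix arrays. The deposited values were on a log2 scale and covered 45101 probe sets. Per the submitters' processing notes, the authors used RMA and R 2.13.0. RMA makes the arrays' distributions alike, so a shift of all RNA per cell could not be seen. No other setting is given in the sources used here. Here, the 13 control probe sets that carried a symbol were left out, and 1 probe set per gene was kept. Differences were fitted with limma 3.58.1 in R 4.3.3 (lmFit, eBayes with an intensity trend), two-sided, with no covariate, and adjusted over 18193 genes. The model had 2 residual degrees of freedom, and limma added a median of 8.017 prior degrees of freedom from the spread over genes. Much of each gene's variance was therefore borrowed from other genes, and the number of arrays limits the precision. The code was tested on simulated data.

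The members, groups and lists were chosen with earlier results of these data known. Named were called members whose days did not overlap, all paralogues, the P stalk, 5S and other studied members, the 5 members with the widest gap between probe sets, and 3 genes per pathway list. Other genes, such as Rpl39, Rpl7a, Rps3, Rrp1, Mycn, Larp1 and Mtor, were named after their values were seen. Alternatives covered the variance model, scaling, filters, probe sets, a replicate block and leaving out each sample. The labels do not say whether the replicate numbers pair the samples, and the main fit did not pair them. Motifs were searched in RefSeq promoters (250 bases before to 50 after the start).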

Additional observations from a re-analysis of the deposited data

How the results depend on the processing

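Rpl39l and Rpl22l1 were called under all 13 alternatives, with differences of -2.85 to -2.75 and 0.35 to 0.37. The 2 members called higher became 1 without the intensity trend, at an adjusted p under 0.01 and among the strong canonical members (a choice made after seeing the data), and 4 with probe sets averaged by gene. With every probe set tested, 7 sets of 6 genes were higher and 14 sets of 11 genes lower. Leaving out 1 sample gave 1 to 3 members called higher. The 7 called lower became 1 with an unmoderated test, which kept Rpl39l, and 0 among the strong canonical members. The count called lower was 10 without probe sets marked as shared, and 8 with quantile normalization applied again. The median of 0.00023 became -0.0308 with the mean of probe sets and -0.026 without probe sets marked as shared. Rpl41 turned to -0.30 with the mean of probe sets and was called lower. Without shared probe sets Rpl41 was -0.75, Rps24 -0.75 and Rps9 -0.40, each called lower, because other probe sets then stood for these genes. With a replicate block 3 were higher and 7 lower. Same-numbered samples had deviations with a correlation of -0.017 over genes, and the labels do not say whether they share more than a number. With 2 samples a day, small differences and levels near background were the limits.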
